A study of Homo sapiens with 6 samples.

Results

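DNA methylation is the addition of a methyl group to cytosine, in mammals mostly at CpG, a cytosine followed by a guanine. DNMT3A and DNMT3B set new methyl groups, DNMT1 copies them to the new strand after replication with the help of UHRF1, and HELLS opens chromatin for these enzymes. The TET dioxygenases oxidise the methyl group and TDG cuts the oxidised bases out, so that repair leaves an unmethylated cytosine. These 10 writers, erasers and helpers, namely DNMT1, DNMT3A, DNMT3B, UHRF1, UHRF2, TET1, TET2, TET3, TDG and HELLS, were taken by gene name from 28563 genes with FPKM in PD-treated and DMSO-treated cells labelled HepG2. A value was present for 9 of the 10, and all 9 were tested. TET1 had no value here and was not analysed, and no gene of the table was at 0 in all 6 libraries.

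HepG2 is an established cell line grown from a human liver cancer, and polydatin (PD) is a plant glucoside of resveratrol. Dishes of these cells received either PD at 336 µM, as the labels give it, or the solvent DMSO alone for 24 h, with 3 dishes and 3 libraries per treatment. The methods of the study state a somewhat lower dose of PD. No genotype differed between the groups, and all dishes came from 1 line, so p-values measure the spread between dishes of 1 culture.

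The labelled cell type was checked with 18 hepatocyte genes, of which 9 had values. In 8 of these 9 every library was under 0.5 FPKM, and TF, FGA, FGG and SERPINA1, which encode plasma proteins of the liver, were at 0 in 3 or more libraries. The highest value, 1.73 FPKM, was that of RBP4 in a PD library, and the summed level of the 9 genes was 0.657 to 0.668 FPKM in DMSO and 1.41 to 1.90 FPKM in PD. ALB and AFP, the albumin genes of adult and fetal liver, were among the 9 that had no value here. The defining markers of hepatocytes were therefore near 0 in cells labelled HepG2, and what this has to do with the results below was not tested. Of 12 genes for endothelium, fibroblasts and leukocytes, 8 had values, with a summed level of 3.71 to 4.31 FPKM in DMSO and 3.72 to 4.09 FPKM in PD, most of it COL1A1. Library totals were 16308476 to 18071632 fragments.

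Sequence before a RefSeq transcript start is shown for the pair of writers that rose and for the pair of erasers that fell most, because the CpG is the substrate of all these enzymes. RefSeq (GRCh38.p14) holds windows for all 10 genes. For genes with several annotated starts, the first in the table is used. Each line below runs 5′ to 3′ through the 250 bases before that start, in lower case with every CpG in capitals. The window of DNMT3B is chr20:32779602-32779851 on the plus strand, that of DNMT1 chr19:10194954-10195203 on the minus strand, that of TET3 chr2:73984660-73984909 and that of TDG chr12:103965622-103965871, both on the plus strand. The starts used for DNMT3B and DNMT1 are not the outermost of their genes. They lie 17.5 kb and 36.3 kb inside the spans that GENCODE annotates for these genes, each at the start of a GENCODE transcript, whereas those of TET3 and TDG lie within 50 bases of the outermost start. Which start was used in these cells was not measured.
DNMT3B: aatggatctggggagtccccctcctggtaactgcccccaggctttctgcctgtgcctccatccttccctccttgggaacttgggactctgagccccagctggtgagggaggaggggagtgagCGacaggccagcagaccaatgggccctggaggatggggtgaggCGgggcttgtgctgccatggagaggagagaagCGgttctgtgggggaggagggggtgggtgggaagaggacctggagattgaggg
DNMT1: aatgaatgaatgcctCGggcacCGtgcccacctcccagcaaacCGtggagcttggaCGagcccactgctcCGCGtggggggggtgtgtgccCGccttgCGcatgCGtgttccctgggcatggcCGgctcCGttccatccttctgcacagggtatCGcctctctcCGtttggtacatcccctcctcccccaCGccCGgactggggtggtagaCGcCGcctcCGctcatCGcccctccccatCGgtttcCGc
TET3: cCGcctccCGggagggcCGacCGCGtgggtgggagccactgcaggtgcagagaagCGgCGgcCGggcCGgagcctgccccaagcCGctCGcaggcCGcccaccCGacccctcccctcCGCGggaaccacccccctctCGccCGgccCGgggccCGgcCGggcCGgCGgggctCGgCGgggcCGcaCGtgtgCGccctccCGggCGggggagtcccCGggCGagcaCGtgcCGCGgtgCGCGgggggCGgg
TDG: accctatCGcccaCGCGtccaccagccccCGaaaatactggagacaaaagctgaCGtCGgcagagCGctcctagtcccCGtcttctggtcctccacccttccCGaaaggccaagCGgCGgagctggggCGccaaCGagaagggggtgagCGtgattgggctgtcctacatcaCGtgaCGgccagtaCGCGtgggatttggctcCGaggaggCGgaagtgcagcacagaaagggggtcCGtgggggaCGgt
The window of DNMT3B, an internal stretch of the gene, held 3 CpG, fewer than the median of 11 over 34943 such windows. That of DNMT1 held 21, that of TDG 22 and that of TET3 37, which is at percentile 96.4 of all windows. Methylation itself was not measured. The E2F motif, searched as TTCCCGC or TTGGCGC on both strands, was present in the windows of UHRF1 (6.4 kb inside its span), UHRF2, HELLS, TET3 and TDG, 5 of 10 genes, and in 7.8% of all windows. The Sp1 motif, GGGCGG on both strands, was present in 4 of 10 and in 42.5% of all windows, and no E2F match overlapped an Sp1 match. Both counts take only the first window of a gene, while the shares are over all windows, so they are not like measures. Later windows of DNMT3A and TET2 held Sp1 matches though their first did not, and E2F matches lay in first windows only. A match is a run of letters and not a bound site.

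Of the 9 genes tested, 6 differed between PD and DMSO with an adjusted p no higher than 0.05 (limma on log2(FPKM + 1), Benjamini-Hochberg adjustment over 14400 genes). DNMT1 and DNMT3B rose, while UHRF1, TET2, TET3 and TDG fell. DNMT3A, UHRF2 and HELLS did not pass. Over all 14400 tested genes 58.1% passed, 31.9% as higher and 26.2% as lower in PD, so the share of these genes that passed was near that of the whole table. The median log2 fold change was -0.14 over the 9 genes and 0.01 over all tested genes. In 6 of the 9 genes the values of PD and DMSO libraries did not overlap, which was so for 65.4% of all tested genes (35.6% PD higher, 29.9% PD lower). With a 2-fold threshold added, 3.61% of all tested genes were called (2.04% higher, 1.57% lower) and 0 of the 9. At an unadjusted p under 0.05, 7 of the 9 passed without the 2-fold threshold. The share of all tested genes at that cut-off was not counted, and it is at least the 58.1% that passed after adjustment. DNMT3B was the 1 gene past 2-fold when the pseudocount was 0.1 or when limma voom was run on fragments.

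**Figure D1:**
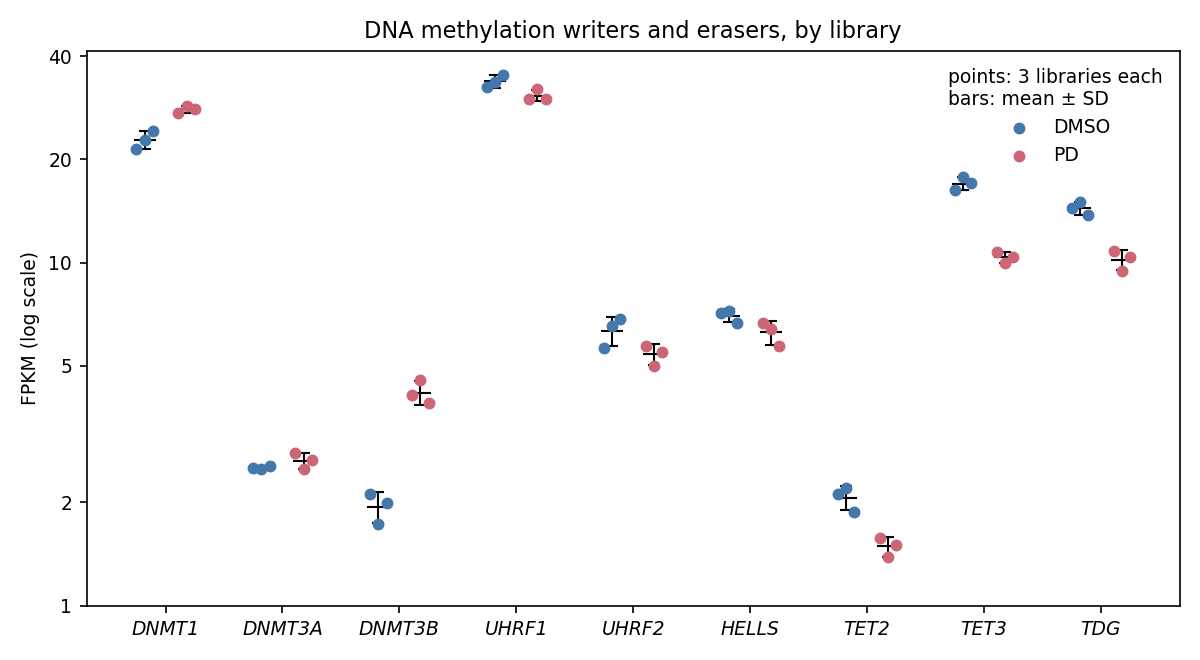
FPKM of the 9 genes with values in each library (log axis), with DMSO in blue and PD in red, points for the 3 libraries of a treatment and bars for the mean ± SD. DNMT3B lay at 1.73 to 2.11 FPKM in DMSO and 3.89 to 4.53 FPKM in PD, whereas TET3 lay at 16.2 to 17.7 and 9.99 to 10.7 FPKM.

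Among the writers, DNMT3B, a de novo methyltransferase that is highest in early embryos and often raised in tumors, showed the largest change. Its FPKM were 2.11, 1.73 and 2.00 in DMSO replicates 1 to 3 and 4.11, 4.53 and 3.89 in PD replicates 1 to 3. All PD libraries lay above all DMSO libraries, and the mean went from 1.94 ± 0.198 to 4.18 ± 0.326 FPKM (SD, n = 3 each), which is 2.15-fold. The pseudocount shrinks fold changes of low genes, and on the log2(FPKM + 1) scale the rise was 0.82 (SE 0.08, adjusted p = 0.000103 by limma). This fold change is at percentile 95.7 of all tested genes. It rests on 134 to 368 fragments per library, the thinnest coverage of the 9 genes, for which counting error alone gives a relative SD of 8.64% at the lowest. DNMT3B lies on chromosome 20 of GRCh38 from 32762385 to 32809359, and none of its exons overlap another annotated gene.

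DNMT3A, the other de novo enzyme, had 2.52, 2.51 and 2.55 FPKM in DMSO and 2.79, 2.50 and 2.65 FPKM in PD. The groups overlapped. Its log2 fold change was 0.05 with a 95% confidence interval of -0.09 to 0.19 and an adjusted p of 0.524 (limma). The gene lies on chromosome 2 from 25227855 to 25342590 and has an annotated pseudogene, DNMT3AP1.
DNMT1, the maintenance enzyme and by far the most abundant of the DNMT genes, rose from 21.5, 22.8 and 24.2 FPKM in DMSO to 27.3, 28.6 and 28.1 FPKM in PD. The treatments did not overlap, and the means were 22.8 ± 1.34 and 28.0 ± 0.650 FPKM (SD, n = 3 each). It rose by 0.29 on the log2 scale (SE 0.05, adjusted p = 0.00168 by limma). DNMT1 lies on chromosome 19 from 10133342 to 10231286, and 0.54% of its exon bases are shared with S1PR2.

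UHRF1 reads hemimethylated CpG at the replication fork and recruits DNMT1, and it was the most abundant of the 9 genes. It had 32.4, 33.6 and 35.3 FPKM in DMSO and 30.1, 32.0 and 30.1 FPKM in PD. The PD libraries were all lower, by a narrow margin, with means of 33.7 ± 1.44 and 30.7 ± 1.11 FPKM (SD, n = 3 each). The log2 fold change was -0.13 (SE 0.04, adjusted p = 0.0345 by limma). This call was lost without DMSO replicate 2 (adjusted p = 0.0695), without DMSO replicate 3 (0.0903), without PD replicate 1 (0.0983) and without PD replicate 3 (0.106), and also with no filter on FPKM (0.0637), all by limma. DNMT1 thus rose while its recruiting partner did not.
UHRF2, the paralog of UHRF1, had 5.63, 6.53 and 6.83 FPKM in DMSO and 5.73, 5.00 and 5.49 FPKM in PD, and the lowest DMSO library lay within the PD range. Its log2 fold change was -0.19 with a 95% confidence interval of -0.37 to -0.01 and an adjusted p of 0.0675 (limma). It passed without DMSO replicate 1, with a log2 fold change of -0.26 and an adjusted p of 0.0181 (limma), with upper quartile scaling (adjusted p = 0.0366) and with voom on fragments (adjusted p = 0.00338). UHRF2 has an annotated pseudogene, UHRF2P1, so reads could be shared between them.
HELLS, the remodeler also called LSH, had 7.15, 7.23 and 6.65 FPKM in DMSO and 6.66, 6.42 and 5.71 FPKM in PD. The groups touched at DMSO replicate 3 and PD replicate 1. The log2 fold change was -0.14 with a 95% confidence interval of -0.29 to 0.01 and an adjusted p of 0.0920 (limma), and it passed with upper quartile scaling (adjusted p = 0.0393) and with voom on fragments (adjusted p = 0.00995). A lncRNA on the same strand shares 3.08% of its exon bases.

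Each of the 3 eraser genes with values fell. TET3, the main TET gene in these libraries, had 16.2, 17.7 and 17.0 FPKM in DMSO and 10.7, 9.99 and 10.4 FPKM in PD. No library of one treatment came near those of the other, and the mean fell from 17.0 ± 0.742 to 10.4 ± 0.362 FPKM (SD, n = 3 each), to 0.610 of the DMSO level. The log2 fold change was -0.66 (SE 0.05, adjusted p = 2.75e-05 by limma), at percentile 5.38 of all tested genes. TET3 lies on chromosome 2 from 73984910 to 74108176, and a lncRNA on the same strand shares 3.01% of its exon bases.
TET2, which is often mutated in blood cancers, was low, with 2.11, 2.20 and 1.88 FPKM in DMSO and 1.58, 1.39 and 1.50 FPKM in PD. The PD libraries were all lower, and the means were 2.06 ± 0.168 and 1.49 ± 0.0973 FPKM (SD, n = 3 each). Its log2 fold change was -0.30 on the FPKM + 1 scale (SE 0.08, adjusted p = 0.0113 by limma), and -0.445 with a pseudocount of 0.1. TET2 lies on chromosome 4 from 105145875 to 105279816, and its exons overlap no other annotated gene.
TDG, the glycosylase that removes the bases that TET enzymes have oxidised furthest, had 14.4, 15.1 and 13.8 FPKM in DMSO and 10.8, 9.44 and 10.4 FPKM in PD. Again the treatments did not overlap, and the means were 14.4 ± 0.640 and 10.2 ± 0.692 FPKM (SD, n = 3 each). The log2 fold change was -0.46 (SE 0.06, adjusted p = 0.000413 by limma). TDG lies on chromosome 12 from 103965822 to 103988874. A pseudogene, TDGP1, is annotated, and a lncRNA on the same strand shares 3.44% of the exon bases of TDG, so some of its fragments are uncertain.

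**Figure D2:**
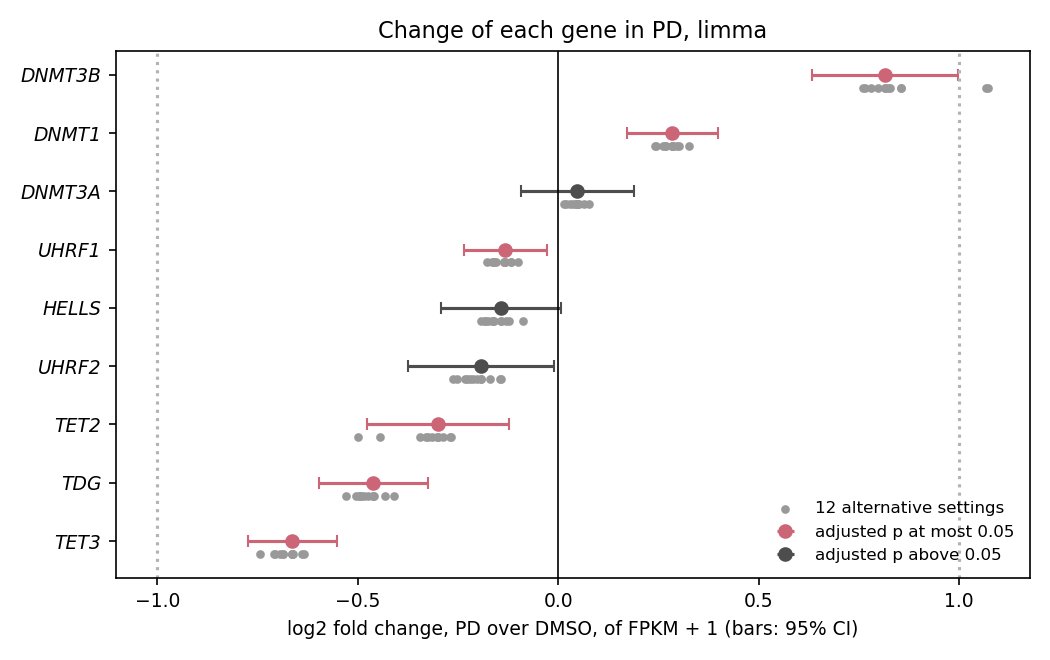
Log2 fold change of FPKM + 1 in PD over DMSO for each gene (limma), with bars for the 95% confidence interval, red for an adjusted p of at most 0.05, small grey points for the 12 alternative settings, and dotted lines at a doubling and a halving. DNMT3B (0.82) and TET3 (-0.66) stand at the ends, and no gene changed sign in any setting shown.

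The order of the genes by FPKM, which is a level per length of gene, differed between the treatments. In DMSO it ran from UHRF1 through DNMT1, TET3, TDG, HELLS, UHRF2, DNMT3A and TET2 to DNMT3B. The neighbours HELLS and UHRF2 overlapped in their libraries, as did TET2 and DNMT3B. In PD, DNMT3B stood above DNMT3A and TET2 was the lowest. TET3 and TDG, which were apart in DMSO, overlapped in PD, and HELLS and UHRF2 overlapped there too.

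To compare partners within a library, the ratio of FPKM was taken for 4 pairs. A ratio of TET1 to TET3 had also been planned and could not be computed. With 3 libraries per treatment, the exact permutation test (two-sided) cannot give a p under 0.10, so no ratio could pass. DNMT3B over DNMT3A was 0.837, 0.689 and 0.783 in DMSO and 1.47, 1.82 and 1.47 in PD. By FPKM, DNMT3A was thus the higher of the pair in every DMSO library and DNMT3B in every PD library (exact p = 0.10, 0.133 after adjustment over the 4 ratios). In fragments, not divided by gene length, DNMT3A had 505 to 606 per library and DNMT3B 134 to 368. Which of the pair is higher therefore depends on the lengths used, whereas the change of their ratio between treatments does not. DNMT1 over UHRF1 was 0.663 to 0.685 in DMSO and 0.894 to 0.933 in PD, 1.35-fold higher, with the same exact p. TET2 over TET3 was 0.110 to 0.130 in DMSO and 0.139 to 0.147 in PD, again with an exact p of 0.10 and higher in 3 of 3 PD libraries. UHRF1 over UHRF2 overlapped between the treatments, with means of 5.36 ± 0.351 and 5.71 ± 0.609 (SD, n = 3 each; exact p = 0.50).

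**Figure D3:**
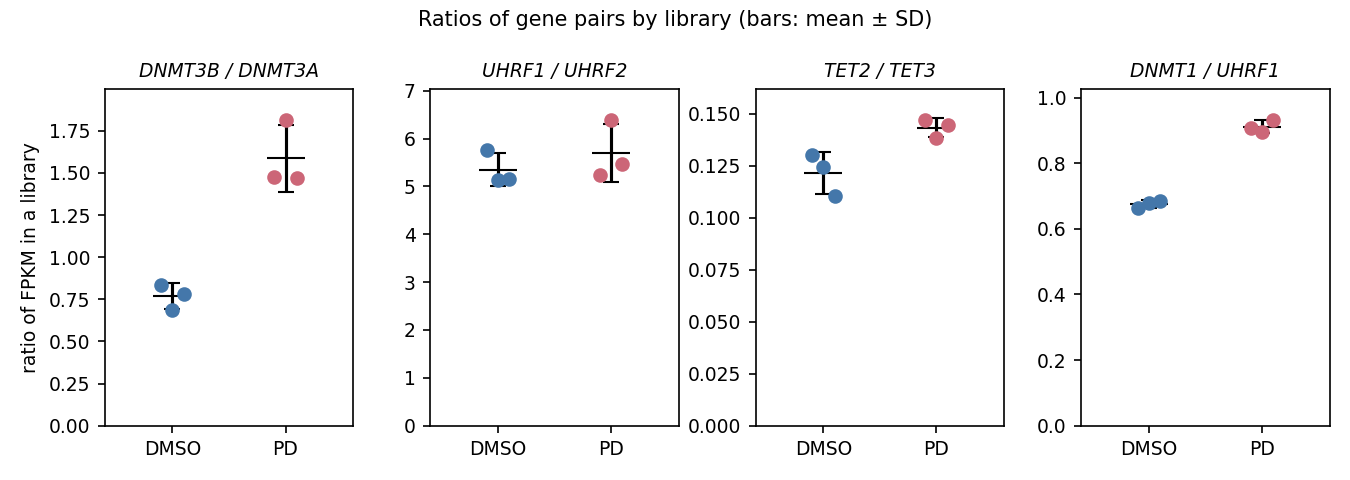
Ratio of FPKM within each library for 4 pairs of genes, DMSO in blue and PD in red, with points for libraries, bars for the mean ± SD and axes from 0. DNMT3B over DNMT3A lies below 1 in the 3 DMSO libraries and above 1 in the 3 PD libraries, and UHRF1 over UHRF2 overlaps. Where a ratio lies against 1 depends on the gene lengths used for FPKM.

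Summed over DNMT1, DNMT3A and DNMT3B, the writers had 26.1 to 28.7 FPKM in DMSO and 34.2 to 35.6 FPKM in PD. DNMT1 made up 83.6% ± 1.16 of that sum in DMSO and 80.4% ± 0.639 in PD (SD, n = 3 each), and the part of DNMT3B went from 7.14% ± 0.865 to 12.0% ± 0.738. TET2 and TET3 together had 18.3 to 19.9 FPKM in DMSO and 11.4 to 12.3 FPKM in PD, of which TET3 was 89.2% ± 0.814 and 87.5% ± 0.341 (SD, n = 3 each). The sum of the 3 DNMT genes was 1.43 ± 0.0818 times that of the 2 TET genes in DMSO and 2.94 ± 0.176 times in PD (SD, n = 3 each). These sums were formed after the values of the genes had been seen and were not tested, and TET1 is not in them.

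Genes of the steps around these enzymes were read from the same fit, and each list is set beside the 31.9% of tested genes that were higher and the 26.2% that were lower. Of 9 partners of maintenance methylation, 4 rose and 3 fell, and their median log2 fold change was 0.12. The largest changes were rises of PCLAF (0.48), a PCNA-binding protein through which DNMT1 is recruited, of CDCA7L (0.43), a relative of the HELLS activator CDCA7, and of LIG1 (0.39), the ligase that joins replicated DNA. Annotated genes overlap 29.3% of the exon bases of PCLAF on the same strand and 21.4% of those of CDCA7L on the opposite strand, so both values are uncertain.
Of 9 partners of de novo methylation, 8 were tested, 1 rose and 5 fell, with a median of -0.20. SETD2, which sets the histone mark that guides DNMT3B to gene bodies, fell by 0.61 on the log2 scale, from 20.2 ± 0.705 to 12.9 ± 0.808 FPKM (SD, n = 3 each), with an adjusted p of 6.3e-05 (limma). SETDB1, a histone methyltransferase that silences repeats, fell by 0.40, and its corepressor TRIM28 rose by 0.41. An opposite-strand gene overlaps 12.9% of the exon bases of SETDB1. The catalytically inactive DNMT3L was at 0.10 FPKM or less in every library.

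On the side of removal, 12 genes of the repair step of demethylation, of 13 listed, were tested, and 7 rose and 3 fell, with a median of 0.17. Without PD replicate 2 or without PD replicate 3 the number that rose was 4. The glycosylases NEIL2 (0.60) and SMUG1 (0.59) had the largest rises, and NEIL1, a relative of NEIL2, fell (-0.54). SMUG1, which removes uracil and oxidised pyrimidines, went from 6.75 ± 0.329 to 10.7 ± 0.390 FPKM (SD, n = 3 each). Annotated genes on the opposite strand overlap 30.5% of the exon bases of NEIL1. TDG itself fell, so the glycosylases of this step did not move one way.

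Among 8 genes that control TET enzymes or supply their cofactor α-ketoglutarate, 7 were tested, 2 rose and 3 fell, with a median of 0.04. IDH2, the mitochondrial enzyme that makes α-ketoglutarate, had the largest change of the lists, from 7.23 ± 0.613 to 29.0 ± 1.14 FPKM (SD, n = 3 each), up by 1.87 on the log2 scale. IDH1, its cytosolic counterpart, rose by 0.39, from 41.1 ± 0.653 to 54.3 ± 1.03 FPKM (SD, n = 3 each). OGT, the glycosyltransferase that binds TET proteins, had 126 to 130 FPKM in DMSO and 72.0 to 74.4 FPKM in PD, a log2 fold change of -0.80. OGT was thus lower in the same PD libraries as TET3.

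Of 7 genes listed as readers of methylated CpG or as their relatives, 1 rose and 5 fell, with a median of -0.23. The largest changes were those of ZBTB4 (-0.40) and ZBTB38 (-0.38), zinc finger proteins that bind methylated DNA, and of MBD3 (0.27). MBD3, the 1 that rose, is a subunit of the NuRD repressor complex. It is listed by its protein family and not for binding methylated CpG. The number that fell was 3 without any of the DMSO libraries taken singly, and likewise without PD replicate 2 or PD replicate 3. For the S-adenosylmethionine cycle, which supplies the methyl group, 8 of 10 genes were tested, and 2 rose and 5 fell, with a median of -0.24. MAT2A, the S-adenosylmethionine synthetase of dividing cells, fell from 139 ± 4.39 to 89.7 ± 1.11 FPKM (SD, n = 3 each), which is -0.63 as log2 fold change, and GNMT, which consumes S-adenosylmethionine, fell by 0.51. MTR, which remethylates homocysteine to methionine, fell by 0.47, from 10.0 ± 0.692 to 6.97 ± 0.355 FPKM (SD, n = 3 each). Opposite-strand genes overlap 12.5% of the exon bases of MAT2A. MAT1A and BHMT, enzymes typical of liver, were at 0.12 FPKM or less in every library. GNMT, also typical of liver, was at 1.66 to 3.33 FPKM.

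**Figure D4:**
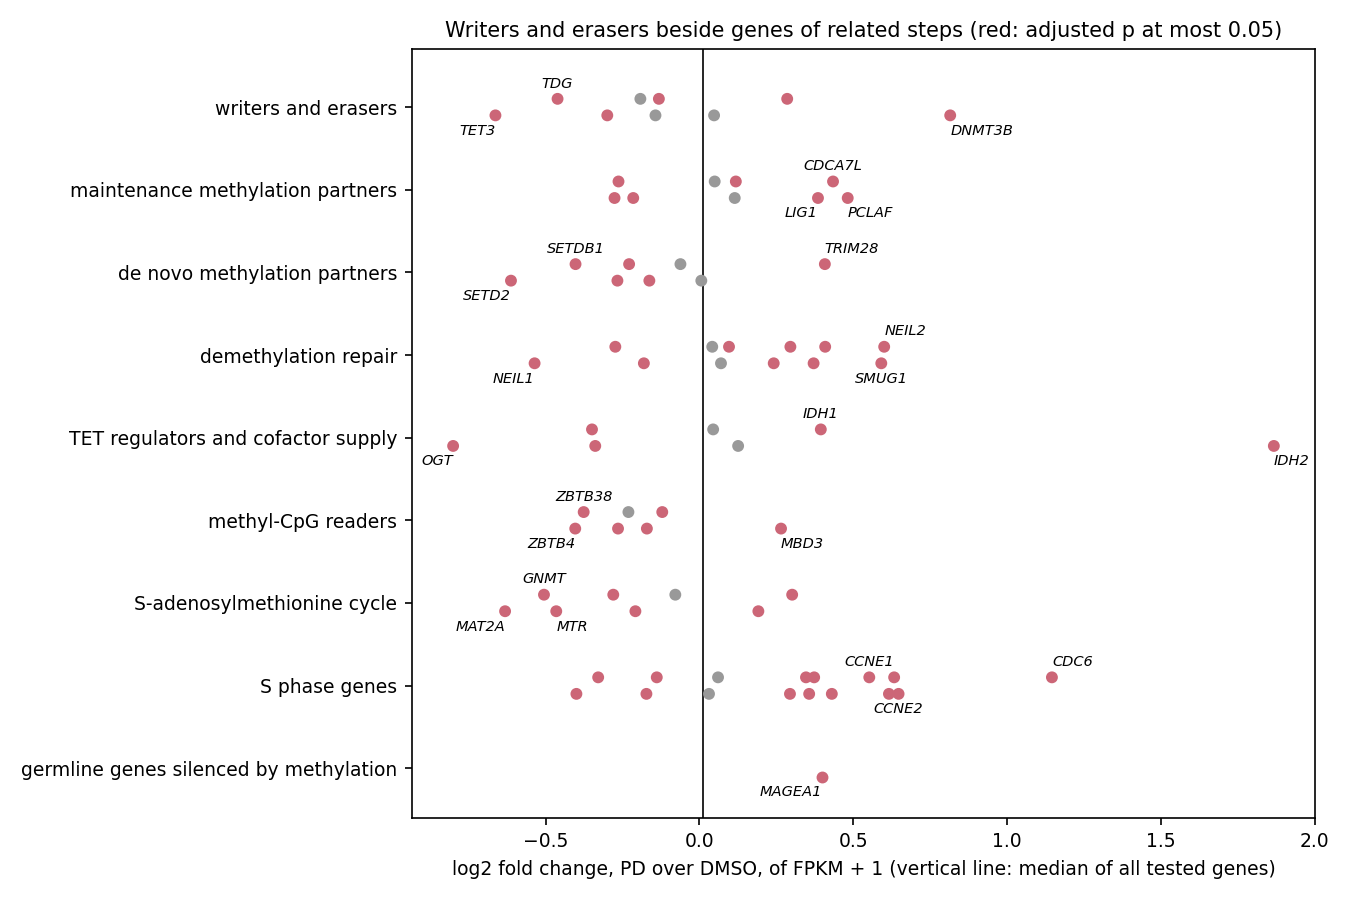
Log2 fold change of FPKM + 1 in PD over DMSO for the writers and erasers and for the tested genes of 8 related lists, with a point per gene, red for an adjusted p no higher than 0.05 by limma, the 3 largest called changes of each row named, and a line at the median of all tested genes. IDH2 (1.87) lies farthest right and OGT (-0.80) farthest left, and all rows but that of MAGEA1 hold genes on both sides of the line.

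Because DNMT1, UHRF1 and HELLS are used mainly in S phase, 16 genes of that phase or of the entry into it were read beside them. Of these, 10 rose and 4 fell, with a median of 0.35. The largest changes were rises of CDC6 (1.15), which loads the replicative helicase, and of the cyclins CCNE2 (0.65) and CCNE1 (0.63), and opposite-strand genes overlap 37.1% of the exon bases of CCNE2. The 4 that fell, named after their values had been seen, were MCM2 (-0.40), MCM5 (-0.33), MCM6 (-0.17) and MCM3 (-0.14), subunits of that helicase. Of its other subunits, MCM4 rose (0.36) and MCM7 did not pass (0.06, adjusted p = 0.289 by limma). An opposite-strand gene overlaps 23.6% of the exon bases of MCM2, so its value is uncertain. More genes of this list thus rose than fell in PD. DNMT1 rose and UHRF1 fell, the latter with a call in 7 of 13 settings. A change in the share of cells in or entering S phase and a change of RNA per cell cannot be told apart in these bulk libraries.

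As genes that are commonly silenced by methylation, 14 germline and cancer-testis genes were looked up, of which 7 had values and 1 passed the 0.5 FPKM minimum. That gene, MAGEA1, a cancer-testis antigen on the X chromosome, had 18.9, 17.5 and 19.6 FPKM in DMSO and 24.2, 25.1 and 25.6 FPKM in PD. It was therefore already active without PD, and it rose by 0.40 on the log2 scale with an adjusted p of 0.000339 (limma). The other 6 were at 0.79 FPKM or less in every library.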

How the data were processed

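Poly(A) RNA of 6 dishes was sequenced. HISAT2 (genome build hg38) and HTSeq 0.6.0 were the aligner and counter of the authors, who deposited FPKM, fragments relative to gene length and library total. Neither the annotation nor the use of strand is given in the sources used here, so overlapped genes are uncertain. Groups came from the sample labels.

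Identifiers were matched to GENCODE release 44 names (28161 of 28563). The 14400 genes whose mean reached 0.5 FPKM were tested by limma 3.58.1 in R 4.3.3 on log2(FPKM + 1), without covariates and with an intensity-dependent prior variance. Whole fragments (within 0.01) were worked back for all 28563 genes from the step that 1 fragment is worth. Genes under 10 fragments numbered 13466 to 13857 per library, and their values are imprecise. Within a treatment no 2 libraries were duplicates, with a chi-square of 2.30 to 3.78 per gene where sampling alone gives about 1. The tests were tested on simulated data.

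Named genes were the 10 listed genes and the 3 largest called changes of each related list. The genes and lists were chosen with earlier results of these data known, and 2 genes of the related lists are not reported here and left out of the list counts. Alternatives were a pseudocount of 0.1, no filter, a replicate block, leaving out each library, upper quartile or median-of-ratios scaling, and limma voom with trimmed-mean factors on genes with at least 10 fragments in 3 libraries. The relative SD worked out from fragment counts covers counting error only.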

Additional observations from a re-analysis of the deposited data

How the results depend on the processing

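The rises of DNMT1 and DNMT3B and the falls of TET2, TET3 and TDG passed an adjusted p of 0.05 (limma) in each of the 13 settings run, and none of the 9 genes changed sign. DNMT3B ranged from 0.76 to 1.07 on the log2 scale, TET3 from -0.74 to -0.63, TDG from -0.53 to -0.41, TET2 from -0.50 to -0.27, and DNMT1 from 0.24 to 0.33. DNMT3A passed in 0 settings, UHRF1 in 7, UHRF2 in 3 and HELLS in 2. The number of genes past 2-fold depended on how low FPKM were handled, with 520 of all tested genes in the main setting, 1248 when the pseudocount was 0.1 and 1711 by voom, and with 1 of the 9 genes, DNMT3B, in both of the latter. Upper quartile scaling moved the median of all genes by -0.04 and gave 4166 higher and 4266 lower genes, against 4588 and 3780.

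No pairing of the dishes by replicate number was visible. Deviations of same-numbered libraries correlated at -0.03, -0.00462 and 0.09, and only those of number 3 correlated best with each other. With 3 libraries per treatment, such correlations cannot exclude a pairing. With the replicate number as a block, 4414 genes were higher and 3618 lower, UHRF1 had an adjusted p of 0.0501 (limma), and 3 readers of methylated CpG fell in place of 5. The lists otherwise kept their counts within 1.5 times, except for the single-library results given above and 1 germline gene that was lower with voom. With 134 fragments in its thinnest library, DNMT3B is the gene whose value is limited most by depth.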
